A study of Mus musculus with 4 samples.

Results

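The genes described here are 6 Sox transcription factor genes of the nervous system and 4 marker genes of radial glia, the dividing cells that line the neural tube. They are Sox1, Sox2, Sox3, Sox4, Sox11, Sox21, Nes, Fabp7, Msi1 and Slc1a3, and each was taken by its symbol from the deposited expression table. All 10 were found among its 23235 gene symbols. RNA of 4 mouse cell cultures was sequenced after rRNA depletion, with 1 library per group. WT_ES are wild-type embryonic stem (ES) cells at day 0, labelled as strain 129S4/SvJae with J1 as background. DKO_ES are ES cells of the same labelled strain and day with a double knockout of Dnmt3a and Dnmt3b, the genes of the enzymes that methylate DNA de novo. WT_NP and DKO_NP are the ES-derived neural progenitor cells of each genotype at day 6, after 4 days as embryoid bodies and 2 days of retinoic acid. Both lines had been grown in serum with leukemia inhibitory factor, on feeder cells in earlier passages and on gelatin later, and how many clones or cultures a library holds is not given in the sources used here.

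Sox proteins bind DNA through an HMG box. The SoxB1 proteins Sox1, Sox2 and Sox3 keep neural progenitors dividing and undifferentiated, and Sox2 is in addition a core pluripotency factor of ES cells, where it acts with Pou5f1. Sox21, of the SoxB2 group, counteracts SoxB1 proteins and promotes neuronal differentiation. The SoxC proteins Sox4 and Sox11 are best known in committed neuronal precursors. Nes encodes nestin, the intermediate filament protein of neural stem cells, Fabp7 a brain lipid-binding protein of radial glia, Msi1 the RNA-binding protein Musashi-1, and Slc1a3 the glutamate transporter GLAST of radial glia and astrocytes.

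Promoters are shown for the genes that stood at least 2-fold higher in DKO_NP than in WT_NP and have an entry in the RefSeq table, since the knockout removes enzymes that methylate CpG. Each is the stretch of 250 bases before the RefSeq start on GRCm38.p6, 5′ to 3′ on the gene's strand, with CpG dinucleotides in capitals. The Sox1 stretch is chr8:12395269-12395518 (plus strand), that of Sox2 is chr3:34649745-34649994 (plus), that of Nes is chr3:87970843-87971092 (plus), that of Fabp7 is chr10:57784673-57784922 (plus) and that of Slc1a3 is chr15:8710808-8711057 (minus).
Sox1: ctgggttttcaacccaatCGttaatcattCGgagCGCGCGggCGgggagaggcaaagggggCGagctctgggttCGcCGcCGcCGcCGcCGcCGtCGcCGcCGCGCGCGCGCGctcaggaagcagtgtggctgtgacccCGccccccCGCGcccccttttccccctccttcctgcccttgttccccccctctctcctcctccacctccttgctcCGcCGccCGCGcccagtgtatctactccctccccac
Sox2: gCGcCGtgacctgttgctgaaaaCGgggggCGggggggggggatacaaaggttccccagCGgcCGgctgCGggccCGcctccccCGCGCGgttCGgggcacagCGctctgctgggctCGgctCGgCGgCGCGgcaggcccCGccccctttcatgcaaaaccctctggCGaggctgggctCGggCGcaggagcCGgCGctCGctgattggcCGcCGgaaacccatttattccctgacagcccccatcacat
Nes: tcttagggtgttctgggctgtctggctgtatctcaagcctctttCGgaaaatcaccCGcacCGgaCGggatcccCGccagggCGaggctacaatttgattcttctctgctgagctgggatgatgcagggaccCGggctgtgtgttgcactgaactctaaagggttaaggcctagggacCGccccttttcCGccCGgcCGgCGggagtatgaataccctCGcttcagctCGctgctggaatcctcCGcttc
Fabp7: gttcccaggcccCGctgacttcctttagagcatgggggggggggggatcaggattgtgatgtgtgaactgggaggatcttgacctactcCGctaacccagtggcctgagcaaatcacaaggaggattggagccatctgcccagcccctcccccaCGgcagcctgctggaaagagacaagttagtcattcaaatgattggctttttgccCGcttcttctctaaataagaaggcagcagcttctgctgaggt
Slc1a3: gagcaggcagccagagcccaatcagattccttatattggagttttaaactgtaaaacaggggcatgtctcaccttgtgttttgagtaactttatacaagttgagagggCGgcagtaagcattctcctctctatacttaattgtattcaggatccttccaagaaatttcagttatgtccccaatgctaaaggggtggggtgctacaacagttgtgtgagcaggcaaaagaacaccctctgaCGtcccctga
The promoters differed in CpG content. Sox1 and Sox2 held 29 and 27 CpGs, a ratio of observed to expected CpG of 0.987 and 0.833, and Nes held 15 with a ratio of 0.694. Fabp7 held 4 CpGs with a ratio of 0.214 and Slc1a3 held 2 with a ratio of 0.16, both below the median ratio of 0.374 over 32851 promoters of the table. The other 3 members with an entry lay above that median, Sox21 at 0.641, Sox4 at 0.801 and Sox11 at 0.811. In all, 8 of 10 members matched, and Sox3 and Msi1 had no entry. The letters AACAAT, read on both strands as a SOX core motif, were in none of the 8 stretches and in 9.42% of all promoters of this length. The letters CCAAT, the core of the CCAAT box, were in 6 of the 8 (all but Sox21 and Nes) against 33.8% of all. No methylation was measured in these samples.

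Levels below are FPKM, reads per kilobase of transcript and per M reads of the library, divided by a factor per library that brings the median gene to the same level (median-scaled FPKM). They can be compared between genes because FPKM is per length. A gene was counted as higher or lower at 2-fold or more, that is at a log2 ratio of 1 or more in size of (median-scaled FPKM + 1), if it reached 1 FPKM as deposited in either library of the pair. A fold given for a gene leaves out the added 1. The 95% interval beside it comes from approximate read numbers (exact Clopper-Pearson) and covers counting error only. With 1 library per group no difference between libraries could be tested against the spread of cultures. Values of low genes placed the FPKM denominators at about 15.6 M reads in WT_ES, and at 1.09 times as many in DKO_ES, 2.63 times in WT_NP and 1.82 times in DKO_NP. The scaling matters most for differentiation: as deposited, the median gene had a log2 ratio of -0.82 in wild type and -0.43 in the knockout between day 6 and day 0, -0.06 between ES libraries and 0.39 between day 6 libraries. As deposited, 901 genes were higher and 5876 lower in wild-type differentiation (2287 and 1592 after scaling), 1102 and 3067 in the knockout (1656 and 1570), and 1382 and 531 between day 6 libraries (648 and 1087).

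The targeted genes stood lower in the knockout libraries, Dnmt3a at 9.82 against 26.7 in WT_ES and at 4.56 against 25.7 in WT_NP, and Dnmt3b at 11.1 against 106 and at 5.75 against 14.9. FPKM per gene does not show which exons were read. The library labelled WT_NP held RNA of other lineages beside the neural markers. Summed over 6 neural progenitor markers (4 of them members: Sox1, Sox2, Nes and Fabp7) the level was 78.3 in WT_NP and 238 in DKO_NP, 211 in WT_ES and 215 in DKO_ES, the ES sums being mostly Sox2. Summed over 6 mesoderm and blood markers the level was 932 in WT_NP, most of it from the embryonic globins Hbb-bh1 and Hba-x, and 49.8 in DKO_NP; 6 endoderm markers summed to 132 and 23.0. In the ES libraries these lists summed to at most 2.25, with Ttr and Hba-x listed at 0 in both. Summed ES cell markers (5 genes) were 2329 in WT_ES and 2423 in DKO_ES at day 0, and 35.3 in WT_NP and 91.4 in DKO_NP at day 6. The part of this makeup in the day 6 differences below was not tested. In bulk RNA, fewer cells of a type and less RNA per cell cannot be told apart.

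**Figure D1:**
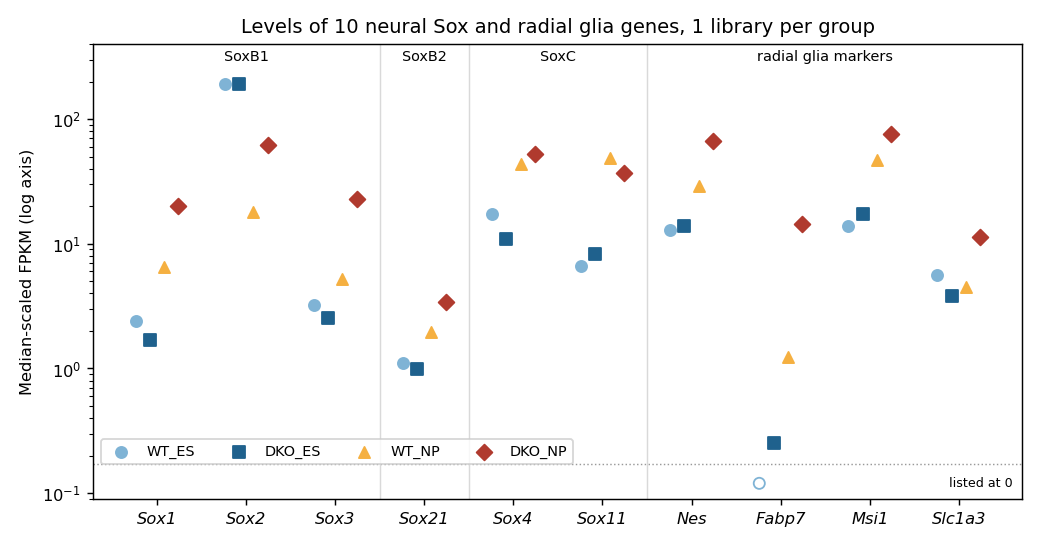
Median-scaled FPKM (log axis) of the 10 genes, with 1 point for each of the 4 libraries and genes grouped by family or role; the open circle is Fabp7 in WT_ES, listed at 0. Sox2 is highest in the ES libraries (192 and 190), while Nes, Fabp7, Msi1 and Slc1a3 are highest in DKO_NP.

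The SoxB1 genes, at day 6, were all higher in the knockout library, and Sox2 made up a similar share of their sum in both genotypes. Sox2 stood at 192 in WT_ES and 190 in DKO_ES at day 0, and at 18.1 in WT_NP and 61.9 in DKO_NP at day 6. It was thus highest in both ES libraries, and day 6 was 10.6-fold lower in wild type (interval 9.89 to 11.4) and 3.07-fold lower in the knockout (2.94 to 3.21). Between the day 6 libraries Sox2 was 3.42-fold higher in DKO_NP (3.17 to 3.68). Between ES libraries it was 1.01-fold lower in DKO_ES, with an interval that includes 1 (0.977 to 1.04).

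Sox1, an early marker of the neural plate, stood at 2.39 in WT_ES and 1.71 in DKO_ES at day 0, and at 6.46 in WT_NP and 20.2 in DKO_NP at day 6. Its day 6 libraries were above its ES libraries in both genotypes, by 2.70-fold in wild type (2.33 to 3.14) and 11.8-fold in the knockout (10.1 to 13.9). Sox3, an X-linked gene, stood at 3.24 in WT_ES and 2.53 in DKO_ES at day 0, and at 5.19 in WT_NP and 22.8 in DKO_NP at day 6. For Sox3 the wild-type difference was 1.60-fold (1.30 to 2.01), under the 2-fold mark, and as deposited its log2 ratio was below 0, at -0.23. The knockout difference was 9.01-fold (7.37 to 11.2). DKO_NP was 3.12-fold above WT_NP for Sox1 (2.88 to 3.38) and 4.40-fold for Sox3 (3.84 to 5.04).

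Within a library, ratios between genes need no scaling. Sox2 made up 97.2% of the summed SoxB1 FPKM in WT_ES and 97.8% in DKO_ES, but 60.9% in WT_NP and 59.0% in DKO_NP. The ratio of Sox1 to Sox2 was 0.0125 in WT_ES (interval 0.0109 to 0.0142) and 0.00897 in DKO_ES (0.00766 to 0.0105), and it was 0.357 in WT_NP (0.325 to 0.392) and 0.326 in DKO_NP (0.309 to 0.344). At day 6 the intervals of this ratio overlapped between genotypes, while the SoxB1 sum was 3.53-fold higher in DKO_NP (105 against 29.8). The ratio of Sox3 to Sox1 was 0.804 in WT_NP (0.698 to 0.925) and 1.13 in DKO_NP (1.05 to 1.22), so the order of these 2 genes differed between the day 6 libraries and the intervals did not overlap. Relative to Pou5f1, Sox2 stood at 0.233 in WT_ES, 0.206 in DKO_ES, 1.10 in WT_NP (0.987 to 1.23) and 2.41 in DKO_NP (2.22 to 2.61). Both day 6 libraries therefore held more Sox2 RNA per Pou5f1 RNA than either ES library. With Nanog as reference, Sox2 was at 2.12 in WT_NP (1.90 to 2.37) and 2.87 in DKO_NP (2.68 to 3.08). The day 6 order of genotypes depends on the reference gene. DKO_NP exceeded WT_NP by 5.49-fold for Zfp42, more than the 3.42-fold of Sox2, and by 3.45-fold for Dppa5a, close to it. The rest of the 9 ES cell genes had smaller folds than Sox2, among them Pou5f1 at 1.56, or were lower in DKO_NP (Klf4).

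**Figure D2:**
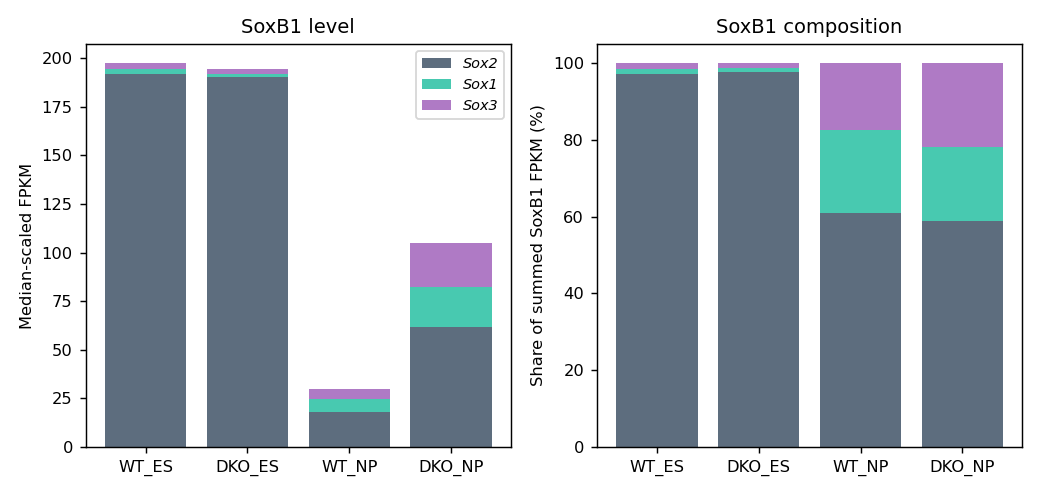
Stacked bars of Sox2, Sox1 and Sox3 in each of the 4 libraries, as median-scaled FPKM (left) and as a share of their summed FPKM in percent (right). The sum is 29.8 in WT_NP and 105 in DKO_NP, while Sox2 makes up 60.9% and 59.0% of it.

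Sox21, the SoxB2 gene, was the lowest of the 6 Sox genes in all 4 libraries, at 1.10 in WT_ES and 0.988 in DKO_ES at day 0, and at 1.96 in WT_NP and 3.39 in DKO_NP at day 6. Day 6 was above day 0 in both genotypes, by 1.78-fold in wild type (1.37 to 2.35; log2 ratio -0.08 as deposited) and 3.43-fold in the knockout (2.65 to 4.44). DKO_NP was 1.73-fold above WT_NP (1.44 to 2.08), under the 2-fold mark. Relative to Sox2, Sox21 was 0.108 in WT_NP (0.0921 to 0.126) and 0.0547 in DKO_NP (0.0486 to 0.0615), so the SoxB2 transcript was less abundant per Sox2 transcript in the knockout library. The deposited values do not use a stated strand, and an antisense long RNA, Gm4675, shares 713 of the 3799 exon bases of Sox21 in GENCODE M21.

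The SoxC members Sox4 and Sox11 were higher at day 6 than at day 0 in both genotypes, and between the day 6 libraries they differed in opposite directions, each by less than 2-fold. Sox11 stood at 6.68 in WT_ES and 8.27 in DKO_ES at day 0, and at 48.3 in WT_NP and 36.8 in DKO_NP at day 6. It was the highest of the 10 genes in WT_NP and the only member lower in DKO_NP than in WT_NP, by 1.31-fold (1.28 to 1.35); as deposited its log2 ratio was 0.04 in the other direction. Sox4 stood at 17.2 in WT_ES and 10.8 in DKO_ES at day 0, and at 43.8 in WT_NP and 52.4 in DKO_NP at day 6. Its day 6 difference was 1.20-fold (1.15 to 1.24), and before differentiation it was 1.59-fold lower in the knockout (1.47 to 1.72), the largest fold between ES libraries among the 9 members that passed the filter. Their sum, without Sox12, was 92.2 in WT_NP and 89.2 in DKO_NP. The ratio of Sox11 to Sox4 was 1.10 in WT_NP (1.07 to 1.14) and 0.702 in DKO_NP (0.679 to 0.726), against 0.388 in WT_ES and 0.763 in DKO_ES. Gm26735, an antisense long RNA that is not in the table, shares 2616 of the 4795 exon bases of Sox4 in GENCODE M21, and without strand any reads of it could not be told apart from Sox4.

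Among the radial glia markers, Fabp7 showed the largest difference of all 10 genes at day 6. It was listed at 0 in WT_ES and stood at 0.251 in DKO_ES, 1.23 in WT_NP and 14.5 in DKO_NP. The steps of its values correspond to 0, 3, 19 and 210 reads, so the low libraries rest on few reads. DKO_NP was 11.8-fold above WT_NP (7.38 to 20.0) and 57.8-fold above DKO_ES (19.5 to 282), and 61 of 13601 genes had a higher day 6 ratio of DKO_NP to WT_NP. Fabp7 also stood higher in DKO_NP relative to Nes and Sox2. Its ratio to Nes was 0.0426 in WT_NP (0.0256 to 0.0665) and 0.217 in DKO_NP (0.188 to 0.249). Its ratio to Sox2 was 0.068 in WT_NP (0.0406 to 0.106) and 0.234 in DKO_NP (0.203 to 0.27).

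Nes stood at 12.8 in WT_ES and 13.8 in DKO_ES at day 0, and at 28.8 in WT_NP and 66.9 in DKO_NP at day 6. It was above the ES level in both day 6 libraries, by 2.26-fold in wild type (2.13 to 2.39) and 4.86-fold in the knockout (4.62 to 5.12), and DKO_NP was 2.32-fold above WT_NP (2.24 to 2.40). Msi1 stood at 13.8 in WT_ES and 17.5 in DKO_ES at day 0, and at 46.8 in WT_NP and 76.5 in DKO_NP at day 6, and was the highest of the 10 genes in DKO_NP. The Msi1 difference between day 6 libraries was 1.63-fold (1.57 to 1.70), under 2-fold, while as deposited its log2 ratio was 1.12, past 2-fold. Differentiation differences of Msi1 were 3.39-fold in wild type (3.14 to 3.66) and 4.38-fold in the knockout (4.10 to 4.68). Both genes were already detected in ES cells, above Sox1 and Sox3 in the same libraries.

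Slc1a3 differed in direction between the genotypes. It stood at 5.65 in WT_ES and 3.83 in DKO_ES at day 0, and at 4.49 in WT_NP and 11.4 in DKO_NP at day 6. On differentiation it was 1.26-fold lower in wild type (1.11 to 1.43) and 2.97-fold higher in the knockout (2.63 to 3.38), and DKO_NP was 2.54-fold above WT_NP (2.28 to 2.83). With housekeeping scaling the wild-type log2 ratio was 0.00, so its direction in wild type depends on the scaling.

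**Figure D3:**
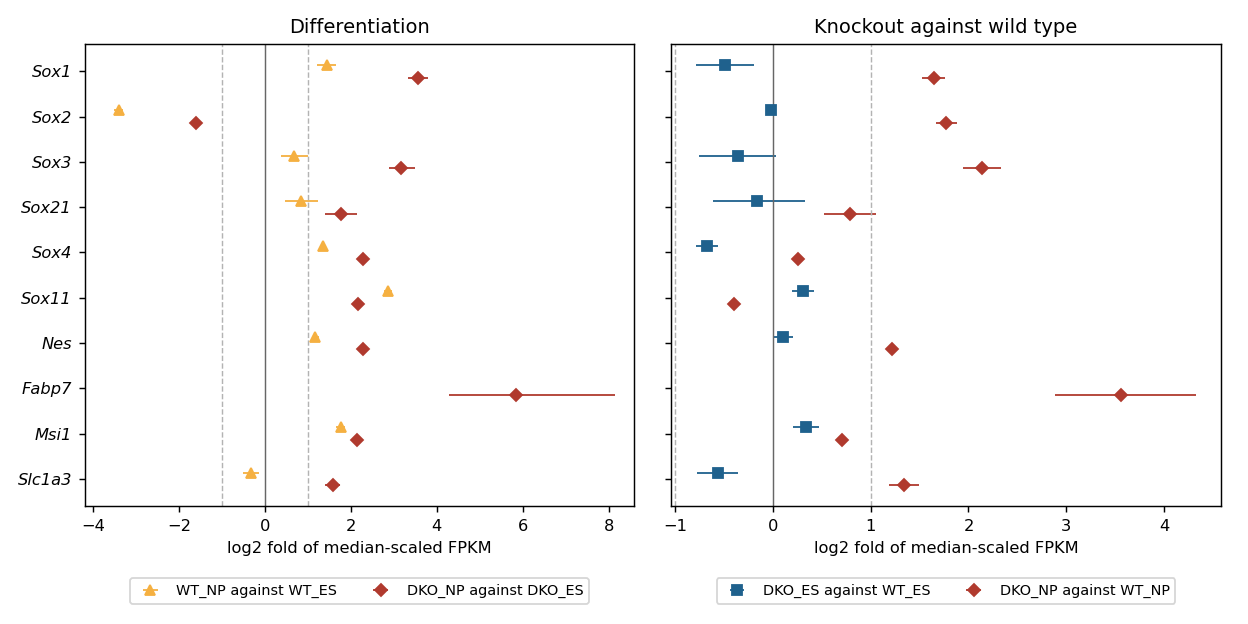
Log2 fold of median-scaled FPKM for each gene, for differentiation (left) and for knockout against wild type (right); bars are 95% counting intervals, dashed lines mark 2-fold, and Fabp7 is left out where WT_ES is listed at 0. Between ES libraries all points lie inside 2-fold, while at day 6 Sox1, Sox2, Sox3, Nes, Fabp7 and Slc1a3 lie beyond it.

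Counted over the 10 genes, wild-type differentiation left 5 at least 2-fold higher (Sox1, Sox4, Sox11, Nes and Msi1), where 16.2% of 14086 genes tested were, and 1 lower (Sox2), where 11.3% were. Fabp7 did not pass the filter there. With FPKM as deposited 1 member (Sox11) was higher and 2 (Sox2 and Slc1a3) were lower in wild type, against 6.4% and 41.7% of all genes at that setting. In the knockout 9 were higher, where 11.8% of all genes were, and Sox2 alone was lower, where 11.2% were. Between ES libraries 0 of the 9 that passed the filter were higher and 0 lower, against 2.56% and 1.15% of all genes (3.71% in either direction). Between day 6 libraries 6 of 10 were higher and 0 lower, against 4.76% and 7.99%, with a median log2 ratio of 1.18 beside 0.01 over all genes. The knockout ratio of differentiation exceeded the wild-type ratio by at least 2-fold for 6 of 10 (4.31% of all genes) and fell short of it by as much for 0 (8.81%). These 6 were those higher at day 6, and the comparisons share libraries. By size, the excess in the knockout was 2.48 on the log2 scale for Fabp7, 2.21 for Sox3, 1.83 for Sox1, 1.73 for Sox2, 1.64 for Slc1a3 and 1.09 for Nes, with 0.87 for Sox4, 0.65 for Sox21, 0.38 for Msi1 and -0.66 for Sox11. The first place of Fabp7 depends on the pseudocount, and its ES libraries hold 0 and 3 reads. With a pseudocount of 0.1 its excess was 1.65, below Sox3 at 2.46, Sox1 at 2.09, Slc1a3 at 1.87 and Sox2 at 1.78. With a pseudocount of 5 Fabp7 and Sox3 both stood at 1.58.

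The order of levels among the 10 genes differed between the libraries. Sox2 led both ES libraries, 11.1-fold above Sox4 in WT_ES and 10.9-fold above Msi1 in DKO_ES, the next members. WT_NP was led by Sox11 at 48.3, Msi1 at 46.8 and Sox4 at 43.8, with Nes at 28.8 and Sox2 at 18.1. DKO_NP was led by Msi1 at 76.5, Nes at 66.9 and Sox2 at 61.9, with Sox4 at 52.4 and Sox11 at 36.8. Sox4 and Sox11 thus stood above Sox2 in WT_NP and below it in DKO_NP. The ratio of Nes to Sox2 was above 1 in both day 6 libraries, at 1.59 in WT_NP (1.48 to 1.71) and 1.08 in DKO_NP (1.04 to 1.13).

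Of 28 other genes of radial glia and neural stem cells, all found, 24 passed the filter between day 6 libraries. In DKO_NP 6 were at least 2-fold higher and 2 lower, where 4.76% and 7.99% of all genes were. Their median log2 ratio was 0.51. The Notch target Hes5 stood at 4.08 in WT_NP and 35.9 in DKO_NP, 8.80-fold higher (7.25 to 10.7). The growth factor receptor gene Fgfr3 was 2.46-fold higher (2.26 to 2.67), and the neurotrophic factor gene Metrn 2.15-fold (2.08 to 2.21). Dll1 and Notch1, a ligand and a receptor of Notch signalling, stood higher, with folds of 2.36 (2.11 to 2.63) and 2.16 (2.06 to 2.26), and Ncan, a proteoglycan gene of brain matrix, had a log2 ratio of 1.03. Between ES libraries Dll1 was already 2.79-fold higher in DKO_ES (2.41 to 3.23) and Pax6 2.80-fold (2.43 to 3.23). Their differentiation ratio in the knockout less that in wild type was -0.18 for Dll1 and -0.29 for Pax6 on the log2 scale. Tnc, a matrix protein of radial glia and of mesenchyme, was 33.0-fold lower (27.2 to 40.7) at 19.2 in WT_NP and 0.581 in DKO_NP, and Lix1 was 4.25-fold lower (3.55 to 5.12). Between ES libraries Tnc was already 9.46-fold lower in the knockout (6.43 to 14.2), at 1.92 in WT_ES and 0.203 in DKO_ES. Cdh2 and Dach1, high in both day 6 libraries, had log2 ratios of 0.33 and -0.27 between genotypes, although they were higher at day 6 than at day 0 by log2 ratios of 3.86 and 4.35 in wild type and 3.86 and 4.10 in the knockout. Nr2e1, a nuclear receptor gene of neural stem cells, stayed below 1 FPKM as deposited in all 4 libraries.

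SoxB1 proteins bind DNA with POU factors, Pou5f1 in ES cells and class III POU proteins in neural cells. The class III genes Pou3f2, Pou3f3 and Pou3f4 were higher in DKO_NP than in WT_NP, and they were the 3 that reached 2-fold of 5 POU genes that passed the filter. For this and the other day 6 counts of this paragraph, 4.76% of all genes were higher and 7.99% lower. Pou3f2 stood at 3.36 in WT_NP against 16.5 in DKO_NP, a fold of 4.91 (4.45 to 5.42). Pou3f3 had a fold of 5.74 (5.18 to 6.35) and Pou3f4, at 1.19 against 6.64, a fold of 5.60 (4.45 to 7.11). Pou3f1 was lower at day 6, with log2 ratios of -2.40 in wild type and -2.12 in the knockout between day 0 and day 6. The ratio of Pou3f2 to Sox2 was 0.186 in WT_NP (0.166 to 0.207) and 0.266 in DKO_NP (0.252 to 0.282), and at most 0.000526 in the ES libraries. Of 8 proneural genes, the bHLH factors and related genes that start neuron formation, 5 were higher and 0 lower, led by Neurog1 at 6.33-fold (4.86 to 8.29), Insm1 at 5.07-fold (3.49 to 7.41) and Nhlh1 at 4.09-fold (2.83 to 6.24), and the median log2 ratio was 1.07. Of 10 neuron genes that passed (13 found of 14, Map2 not found), 6 were higher, among them the neuronal tubulin gene Tubb3 at 4.35-fold (3.87 to 4.92), the neurofilament gene Nefm at 8.68-fold (6.06 to 12.9), Nefl at 3.85-fold (3.16 to 4.69) and Ina at 5.51-fold (4.45 to 6.82). Of these 6, 4 were below their ES level in both genotypes at day 6. Tubb3 stood at 44.7 in WT_ES and 57.4 in DKO_ES at day 0, and at 7.52 in WT_NP and 32.7 in DKO_NP at day 6. Elavl3, Nefl and Ina were likewise lower in DKO_NP than in DKO_ES (1.44-fold, 1.89-fold and 2.23-fold), while Nefm and Elavl4 were higher (6.70-fold and 2.78-fold). Summed over 4 neuron markers (Tubb3, Dcx, Elavl3 and Stmn2) the level was 153 and 149 in the wild-type and knockout ES libraries and 11.2 and 40.5 at day 6. Stmn2 made up most of the ES sums, at 105 in WT_ES and 86.4 in DKO_ES, and stood at 2.23 in WT_NP and 3.04 in DKO_NP. Isl1, a factor of motor neurons and of heart and other mesoderm, was 5.77-fold lower (3.86 to 8.70).

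Of 13 other Sox genes 9 passed the filter between day 6 libraries, and 0 were higher and 0 lower, with a median log2 ratio of -0.25. Of all genes 4.76% were higher and 7.99% lower, and with 9 genes a count of 0 lies close to these shares. Sox12, the remaining SoxC gene, was 1.76-fold lower in DKO_NP (1.63 to 1.91), at 8.64 against 15.2 in WT_NP. Sox9, a factor of glial and other progenitors, stood at 3.40 and 2.40, 1.42-fold lower (1.20 to 1.67). Sox14, the remaining SoxB2 gene, was listed at 0 in 3 libraries and at 0.0628 FPKM in DKO_ES. Sox17, a factor of endoderm, had a log2 ratio of -0.04, at 6.63 in WT_NP and 6.41 in DKO_NP (4.45 and 5.82 FPKM as deposited). Gata4 and Gata6, other endoderm factors, had log2 ratios of -4.64 and -3.27.

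Markers of other cell types differed between the day 6 libraries as well. Over all genes 4.76% were higher and 7.99% lower in this comparison. Of 8 endoderm genes 6 were lower and 0 higher (median log2 ratio -2.20), and of 7 mesoderm and blood genes that passed 6 were lower and 0 higher (median -3.08). The 4 with the largest log2 ratios were Gata4, Gata6, Ttr and Apoa1 in endoderm, the last at 6.17-fold lower (5.27 to 7.23), and Hbb-bh1, Foxf1a, Hba-x and Pdgfra in mesoderm and blood, the last at 13.4-fold lower (11.8 to 15.2). Of 9 ES cell genes 4 were higher and 0 lower (median 0.92). They were Zfp42 at 5.49-fold (4.84 to 6.24), Dppa5a at 3.45-fold (3.21 to 3.71), Nanog at 2.52-fold (2.26 to 2.82), and Esrrb with a fold of 3.01 (2.58 to 3.51). Of 4 neural crest genes that passed, 1 was higher, Pax3, which also marks the dorsal neural tube (3.07-fold, 2.76 to 3.41), and 2 were lower, Snai2 and Ets1. Of 8 astrocyte and oligodendrocyte genes 2 passed and neither reached 2-fold; Gfap, Aqp4 and Olig2 stayed below 1 FPKM in all 4 libraries. Of 5 fibroblast genes that passed 3 were lower (Col3a1, Col1a1 and Acta2) and 0 higher (median -1.36), and of 16 housekeeping genes 0 were higher and 0 lower (median 0.20). Between ES libraries 4 of 6 fibroblast genes were already lower in DKO_ES (Col1a1, Col1a2, Acta2 and Tagln) and 0 higher, where 1.15% of all genes were lower. Summed over 5 fibroblast markers the level was 29.0 in WT_ES and 9.79 in DKO_ES.

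**Figure D4:**
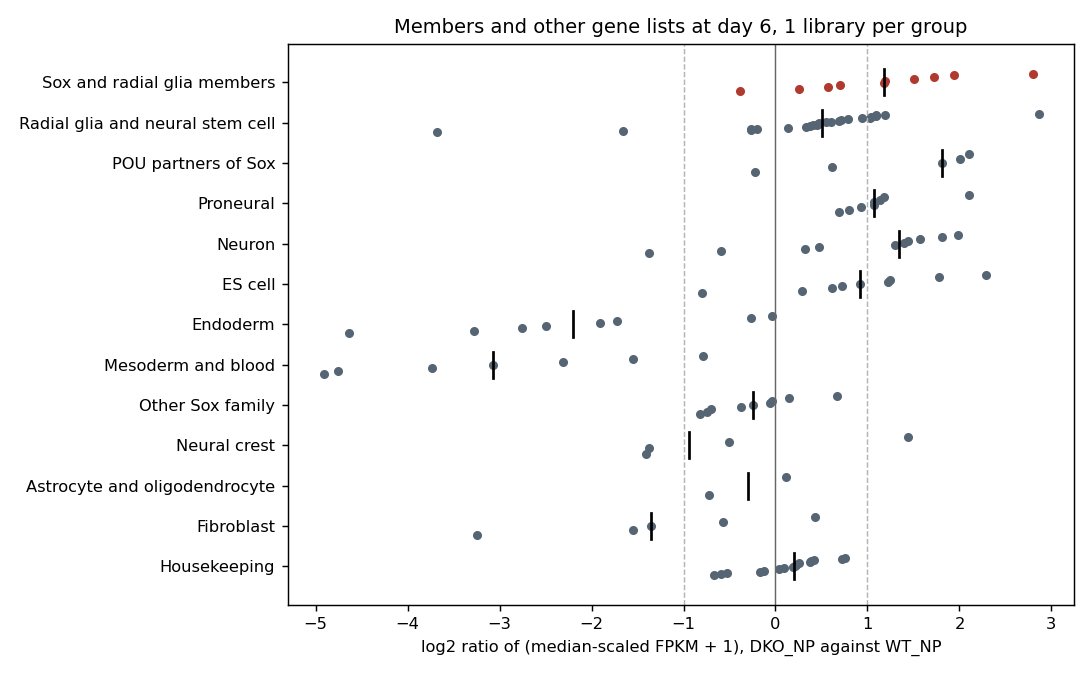
Log2 ratio of (median-scaled FPKM + 1) in DKO_NP against WT_NP for each gene that passed the filter (points) and the list's median (black bar); dashed lines mark 2-fold. The members (red) have a median of 1.18, endoderm -2.20, and mesoderm and blood -3.08.

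Genes with the most similar profile over the 4 libraries were named by the Euclidean distance between centred profiles of log2(median-scaled FPKM + 1), among 11122 genes that reached 5 FPKM. With 4 libraries this is a description only. Nearest to Sox1 were Cpe, a carboxypeptidase that processes neuropeptides (distance 0.14), Fgfbp3 (0.20) and the chemokine receptor gene Cxcr4 (0.21). Nearest to Sox3 were Hoxb7 (0.29), the protocadherin gene Pcdh8 (0.35) and C130071C03Rik (0.38). Nearest to Fabp7 were Plac1 (0.17), the ephrin receptor gene Epha3 (0.29) and Hes5 (0.47). Nearest to Sox2 were the heat shock protein gene Hspb1 (0.37), 1700029P11Rik (0.39) and the neuronal filament gene Ina (0.42), all of them higher in the ES libraries. Sox1 and Sox3 lay 0.51 apart and Sox1 and Nes 0.55, whereas Sox1 and Sox2 lay 4.53 apart.

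Other transcripts at these loci could add reads to some members. Sox2 lies inside the long RNA gene Sox2ot without sharing exon bases in GENCODE M21, and Sox2ot stood at 0.819 in WT_ES and 0.608 in DKO_ES at day 0, and at 1.49 in WT_NP and 1.77 in DKO_NP at day 6, at most 0.0820 of the Sox2 level. Of the 50-base windows of each member's annotated transcripts, 54.1% in Sox4 and 17.8% in Sox21 also occurred in another gene's transcripts, both with the antisense RNAs above. The share was under 1% in Sox1 and Slc1a3 and 0 in the other 6, so identical windows in annotated transcripts of the related Sox genes were not found for Sox2, Sox3 and Sox11.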

How the data were processed

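RNA of 4 mouse libraries, rRNA-depleted and read as single ends of 50 cycles, was measured per the labels' protocols. The authors deposited FPKM per gene; Bowtie, TopHat and mm9 are named per the submitters' processing notes, with no version, and the program that made the FPKM is not given in the sources used here. The table held 23235 gene symbols after 18 rows with a blank name were left out, and 0 columns lacked a sample.

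FPKM was divided by a median factor per library (WT_ES 1.319, DKO_ES 1.252, WT_NP 0.671, DKO_NP 0.908) taken over 11334 genes with at least 1 FPKM in all 4. Log2 ratios used a pseudocount of 1. Denominators, and from them approximate reads, came from the steps of low values with transcript length minus 199 bases (GENCODE M21 lengths); intervals and floors cover counting error only. The interval method was tried on simulated counts. Promoters are RefSeq, GRCm38.p6; no mm9 coordinates were used. Python 3.11.15, pandas 2.3.3, numpy 2.4.6, scipy 1.17.1 and matplotlib 3.10.9 were used.

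Groups are those of the labels, with 4 comparisons of library pairs and the difference of the differentiation ratios. The members and the 12 gene lists were chosen with earlier results of these data known. Named are the 10 members, Dnmt3a and Dnmt3b, the 3 nearest genes of Sox1, Sox2, Sox3 and Fabp7, overlapping transcripts, and in each list the genes past 2-fold with the 4 largest day 6 differences and any past 2-fold the other way; other list genes were chosen after their values were seen. Alternatives were FPKM as deposited, housekeeping scaling, other pseudocounts, filters and fold thresholds. Some list genes that this rule would name are not reported here.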

Additional observations from a re-analysis of the deposited data

Results flagged for a closer look

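Slc1a3 was singled out because its 2 genotypes differed in direction on differentiation. Its log2 ratio of day 6 to day 0 was -0.28 in wild type and 1.36 in the knockout, a difference of 1.64. The difference was not tested, since each group holds 1 library, and with housekeeping scaling the wild-type ratio was 0.00.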

How the results depend on the processing

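No paired analysis was possible because each group holds 1 library. For the same reason no replicate could be left out. Shares in brackets are those of all genes at the same setting. In wild-type differentiation the 5 members higher (16.2%) became 1 with FPKM as deposited (6.4%), 3 with a pseudocount of 5 (6.77%) and 1 at 4-fold (4.54%), and the 1 lower (11.3%) became 2 as deposited (41.7%). In the knockout the 1 lower (11.2%) became 0 at 4-fold (2.68%). Between ES libraries the 0 lower (1.15%) became 1 at 1.5-fold (4.38%). Between day 6 libraries the 6 higher (4.76%) became 1 at 4-fold (1.07%), and 7 as deposited (10.2%). For the difference of the differentiation ratios the 6 higher (4.31%) became 2 at 4-fold (0.85%) and the 0 lower (8.81%) became 1 at 1.5-fold (17.8%). Of 48 member ratios, 3 turned sign as deposited (Sox3 to -0.23 and Sox21 to -0.08 in wild-type differentiation, Sox11 to 0.04 at day 6) and 1 with housekeeping scaling (Slc1a3, to 0.00); none of these had reached 2-fold. No sign turned with other pseudocounts or filters. The single libraries, and the few reads of Fabp7 outside DKO_NP, limit the precision.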
